A study of Mus musculus with 11 samples.

Results

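Ly6d, Gldn, Ifi27l2b, Slc35f2 and Vtcn1 are 5 genes whose RNA was higher in mouse hepatocytes after deletion of Nemo (gene symbol Ikbkg). They were chosen by earlier results of these same arrays, in which every Nemo-deleted sample lay above every sample with intact Nemo. They are 5 of the 30142 genes that have a row of their own in the deposited table, and each has exactly 1 such row. The study measured hepatocyte RNA of male mice aged 12 weeks on 11 whole-transcript expression arrays, in 4 genotypes. Double KO mice carry the liver-specific Nemo knockout [NemoLPC-KO] together with the CXCR6 knockout (source name Nemo_CXCR6 cre+, n = 3). Nemo KO mice carry the liver-specific Nemo knockout alone (source name Nemo cre+, n = 3). Cxcr6 KO mice carry the CXCR6 knockout (source name Nemo_CXCR6 cre-, n = 3). Wildtype samples have the source name Nemo cre- (n = 2). Nemo status was thus compared within a mouse line, whereas Cxcr6 status came with a different line, and those cannot be told apart. The promoter that drives the Cre recombinase was not given in the sources used here. The labels call the replicates biological but do not say that each is a separate mouse, so p-values measure the spread between these samples.

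Nemo is the scaffold that regulates the IkB kinase complex, which frees NF-kB to enter the nucleus. Loss of NF-kB signalling leaves hepatocytes prone to death, and mice without hepatocyte Nemo develop chronic hepatitis and liver tumours. Cxcr6 is a chemokine receptor of T and NKT cells. None of the 5 genes is a classical hepatocyte gene. Ly6d encodes a small membrane-anchored protein of the Ly6 family, known as a surface marker of early B lineage cells and of keratinocytes. Gldn encodes gliomedin, a matrix-bound protein with an olfactomedin domain that gathers sodium channels at nodes of Ranvier. Ifi27l2b belongs to the Ifi27 family, small hydrophobic proteins of which several are induced by interferon. Slc35f2 encodes a multipass membrane protein of the nucleotide-sugar transporter family, which in human cells takes up the compound YM155. Vtcn1 encodes B7-H4, a surface protein of the B7 family that restrains T cells.

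Promoter windows from RefSeq (build GRCm38.p6, 250 bases before to 50 bases after the annotated start) matched 3 of the 5 genes and are shown because these genes are high in the same arrays. The 3 windows, all on the + strand, are chr9:54286236-54286535 for Gldn, chr3:100825209-100825508 for Vtcn1 and chr9:53771285-53771584 for Slc35f2. Capitals mark letters that match a searched motif.
Gldn: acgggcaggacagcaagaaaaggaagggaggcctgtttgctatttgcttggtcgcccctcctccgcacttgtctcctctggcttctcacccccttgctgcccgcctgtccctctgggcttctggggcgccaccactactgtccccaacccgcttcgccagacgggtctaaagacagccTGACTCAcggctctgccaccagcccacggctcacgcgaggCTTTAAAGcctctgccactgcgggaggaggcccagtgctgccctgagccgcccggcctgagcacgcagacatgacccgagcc
Vtcn1: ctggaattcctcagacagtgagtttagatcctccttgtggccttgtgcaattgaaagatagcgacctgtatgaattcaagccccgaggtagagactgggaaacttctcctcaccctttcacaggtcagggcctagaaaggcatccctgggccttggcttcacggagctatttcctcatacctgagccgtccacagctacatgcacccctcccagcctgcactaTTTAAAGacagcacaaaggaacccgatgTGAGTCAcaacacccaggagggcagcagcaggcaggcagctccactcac
Slc35f2: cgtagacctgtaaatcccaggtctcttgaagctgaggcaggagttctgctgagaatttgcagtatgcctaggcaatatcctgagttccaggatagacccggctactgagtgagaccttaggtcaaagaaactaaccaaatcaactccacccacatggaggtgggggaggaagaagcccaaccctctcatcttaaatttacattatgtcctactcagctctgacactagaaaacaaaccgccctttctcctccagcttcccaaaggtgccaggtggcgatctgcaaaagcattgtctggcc
Searched on both strands were the AP-1 motif TGANTCA, the TATA box TATAAA, the variant TTTAAAG, the CCAAT box CCAAT, the interferon response element, the STAT motif TTCNNNGAA, the clock E-box CACGTG and the NF-kB consensus. The variant TTTAAAG was added after the windows had been read. The Gldn window held an AP-1 match whose first base lies at -72 from the start and a TTTAAAG match at -31, which overlaps a match on the opposite strand at -32. The Vtcn1 window held an AP-1 match at position 2 and a TTTAAAG match at -27. No other searched motif matched in these windows, and none of the 8 matched in the Slc35f2 window. Among all 32851 promoter windows of this length, 7.81% hold TGANTCA, 5.75% TTTAAAG, 8.46% the NF-kB consensus and 3.44% the interferon response element. The shares are 13.62% for TATAAA, 37.41% for CCAAT, 7.15% for CACGTG and 8.3% for TTCNNNGAA. A match describes the letters of the window and not a bound site.

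The values are log2 signals after RMA (robust multi-array average, the authors' normalization), and column medians lay between 5.19 and 5.38. Hepatocyte genes such as Alb and Apob were at the top of the range, with a mean over 10 listed genes between 18.22 and 18.42 in every array. Ikbkg itself was not lower in the Nemo-deleted groups (9.05 ± 0.39 in Double KO and 9.32 ± 0.13 in Nemo KO, against 9.15 ± 0.03 in Cxcr6 KO and 9.24 ± 0.32 in wildtype). The position of its probes relative to the deletion is unknown, so this value does not check the labels. Cxcr6 had means of 5.18 in Double KO and 5.18 in Nemo KO, against 5.31 in Cxcr6 KO and 5.41 in wildtype, all in the olfactory receptor range described next. Wildtype replicate 2 stood apart from replicate 1. Their correlation over all rows was 0.984, against 0.99 to 0.995 for other replicate pairs, and the mean of 19 cell cycle genes was 7.67 in replicate 2 and 5.68 in replicate 1. Results that rest on wildtype are therefore also given without replicate 2, for the 5 genes together after the gaps. Such a fit keeps a single wildtype array and holds no spread between wildtype arrays, so its effect sizes are given without SE. Low signal was gauged from 1083 olfactory receptor genes, a family not expected in liver, whose values had a 5th percentile of 3.65 and a 95th percentile of 5.66.

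Ly6d had log2 signals of 14.80, 13.90 and 15.60 in Double KO and 13.56, 14.36 and 11.37 in Nemo KO. It had 5.19, 5.37 and 4.80 in Cxcr6 KO and 4.84 and 5.58 in wildtype. All 5 Nemo-intact arrays thus lay within the range of the olfactory receptor genes, and all 6 Nemo-deleted arrays lay far above it. The log2 fold change was 9.65 ± 0.70 (SE) for Double KO over Cxcr6 KO and 7.89 ± 0.78 for Nemo KO over wildtype, which are ratios of signals of 803 and 237. Because the lower signals are at background, these ratios do not measure how many times more RNA was present.

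Gldn had log2 signals of 10.79, 10.52 and 11.04 in Double KO and 9.67, 11.42 and 9.12 in Nemo KO. It had 5.56, 4.92 and 4.95 in Cxcr6 KO and 4.55 and 4.83 in wildtype. Like Ly6d, gliomedin RNA was at the level of the olfactory receptor genes in each Nemo-intact array. The log2 fold change was 5.64 ± 0.50 for Double KO over Cxcr6 KO and 5.39 ± 0.55 for Nemo KO over wildtype. The 3 Double KO arrays lay inside the range of the 3 Nemo KO arrays.

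Ifi27l2b had log2 signals of 14.66, 14.50 and 14.90 in Double KO and 13.95, 14.89 and 12.82 in Nemo KO. It had 8.31, 9.25 and 9.58 in Cxcr6 KO and 7.48 and 11.95 in wildtype. The gene was well above the olfactory receptor range without Nemo deletion, so it was raised rather than switched on. Wildtype replicate 2 lay closer to the lowest Nemo KO array than to wildtype replicate 1. The log2 fold change was 5.64 ± 0.98 for Double KO over Cxcr6 KO and 4.17 ± 1.10 for Nemo KO over wildtype. Nemo KO over wildtype gave 6.41 without wildtype replicate 2 and 1.94 without wildtype replicate 1, each with a single wildtype array left.

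Slc35f2 had log2 signals of 7.03, 7.45 and 7.96 in Double KO and 7.20, 7.30 and 6.70 in Nemo KO. It had 5.66, 6.05 and 5.79 in Cxcr6 KO and 5.01 and 5.29 in wildtype. Wildtype lay inside the olfactory receptor range and Cxcr6 KO at or just above its upper end. The log2 fold change was 1.65 ± 0.24 for Double KO over Cxcr6 KO and 1.92 ± 0.27 for Nemo KO over wildtype, ratios of signals of 3.14 and 3.78.

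Vtcn1 had log2 signals of 8.31, 8.58 and 8.70 in Double KO and 8.17, 8.19 and 7.90 in Nemo KO. It had 7.43, 6.95 and 6.96 in Cxcr6 KO and 6.54 and 6.83 in wildtype. B7-H4 RNA was thus above the olfactory receptor range in all 11 arrays, and its groups ran in steps. The log2 fold change was 1.42 ± 0.17 for Double KO over Cxcr6 KO and 1.41 ± 0.18 for Nemo KO over wildtype, ratios of signals of 2.67 and 2.65. Only Ly6d and Gldn were at background in every Nemo-intact array, while Ifi27l2b and Vtcn1 were measurable in every Nemo-intact array.

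**Figure D1:**
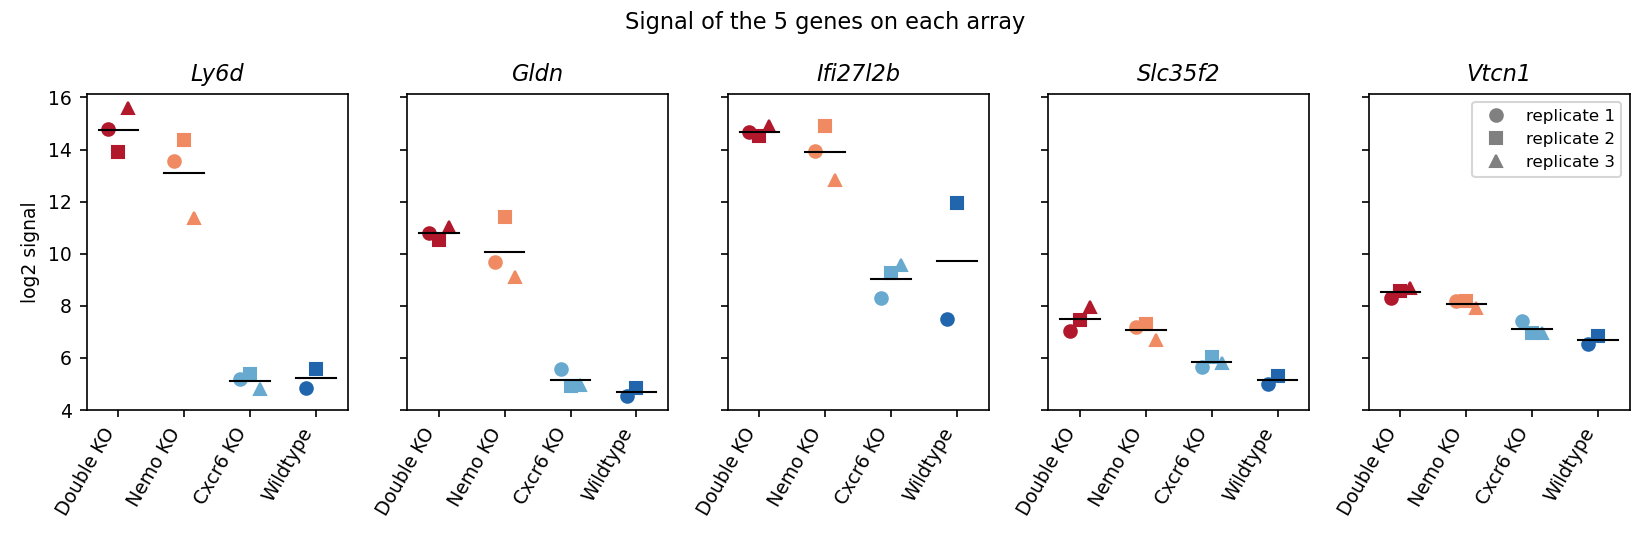
Log2 signal (vertical axis) of each gene in its own panel by genotype (horizontal axis), with a point per array, a symbol per replicate number and a line at the group mean. Every point of Double KO and Nemo KO lies above every point of Cxcr6 KO and wildtype, by the narrowest margin in Vtcn1, and wildtype replicate 2 stands high for Ifi27l2b at 11.95. Panels are to be read within a gene, since signals of different probe sets are not comparable amounts.

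The Nemo effects chose the 5 genes and are a description with no test. All 5 had every Nemo-deleted array above every Nemo-intact array, as 2.03% of the 18337 genes tested did, 373 in all. The gap, the lowest Nemo-deleted array minus the highest Nemo-intact array, was 5.79 log2 units for Ly6d and 3.57 for Gldn, the widest and next widest of all genes tested. It was 0.87 for Ifi27l2b (rank 16), 0.65 for Slc35f2 (rank 28) and 0.47 for Vtcn1 (rank 45). The genes that followed Gldn were Apoa4, an apolipoprotein of lipid-rich particles (gap 1.73), and Mtnr1a, a melatonin receptor (gap 1.65). After them came Gm7665, a predicted gene (gap 1.51). By log2 fold change the 5 genes held ranks 1, 2, 3, 175 and 248 in Double KO over Cxcr6 KO for Ly6d, Gldn, Ifi27l2b, Slc35f2 and Vtcn1. Their ranks in Nemo KO over wildtype were 1, 2, 4, 51 and 108 in the same order of genes. Without wildtype replicate 2 the gap of Ifi27l2b was 3.23, rank 3, and 1060 genes had a gap above 0. The log2 fold changes of Nemo KO over wildtype without wildtype replicate 2 were 8.26 for Ly6d, 5.53 for Gldn, 6.41 for Ifi27l2b, 2.06 for Slc35f2 and 1.55 for Vtcn1. Those of Cxcr6 KO over wildtype were then 0.27, 0.60, 1.57, 0.82 and 0.58, and the interactions 1.39, 0.12, -0.77, -0.41 and -0.13, for the genes in that order. Without Nemo KO replicate 3 the gaps were 7.98 for Ly6d, 4.12 for Gldn, 2.01 for Ifi27l2b, 0.99 for Slc35f2 and 0.74 for Vtcn1.

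**Figure D2:**
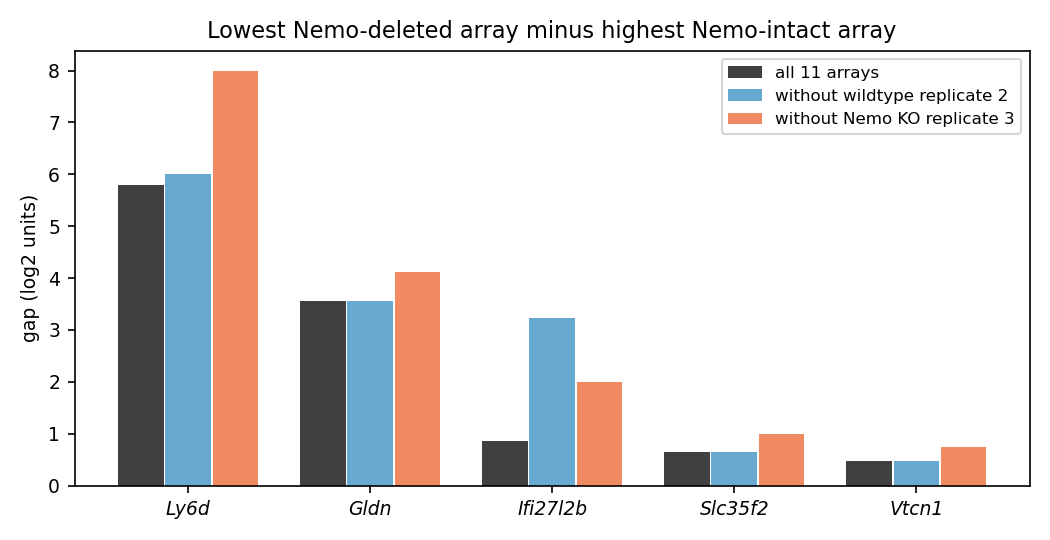
Gap in log2 units (vertical axis) between the lowest Nemo-deleted array and the highest Nemo-intact array for each gene (horizontal axis), with all 11 arrays, without wildtype replicate 2 and without Nemo KO replicate 3. The gap of Ifi27l2b moves most between the sets, 0.87 with all arrays and 3.23 without wildtype replicate 2.

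Whether Cxcr6 loss, or the line it came in, altered these genes was tested separately in Nemo-deleted and in Nemo-intact hepatocytes. These contrasts did not themselves choose the genes. The choice did ask for high values in both Nemo-deleted genotypes and lower values in both Nemo-intact ones, so the contrasts are not fully independent of it. None of the 5 passed 5% in Double KO over Nemo KO, where 0.594% of all genes tested did (limma, Benjamini-Hochberg adjustment over 18337 genes). All 5 estimates were above 0 there, against 56.9% of all genes. Ly6d had means of 14.77 ± 0.85 in Double KO and 13.10 ± 1.55 in Nemo KO, a log2 fold change of 1.67 ± 0.70 (95% interval 0.08 to 3.25, limma adjusted p = 0.278), and the groups overlapped. Vtcn1 had means of 8.53 ± 0.20 in Double KO and 8.09 ± 0.16 in Nemo KO, a log2 fold change of 0.44 ± 0.17 (0.07 to 0.82, limma adjusted p = 0.233). Vtcn1 was the only member with every Double KO array above every Nemo KO array, which 12.9% of all genes tested also showed. The log2 fold change was 0.71 ± 0.50 for Gldn (-0.40 to 1.83, limma adjusted p = 0.480) and 0.79 ± 0.98 for Ifi27l2b (-1.42 to 3.01, limma adjusted p = 0.694). For Slc35f2 it was 0.42 ± 0.24 (-0.13 to 0.96, limma adjusted p = 0.409).

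In Cxcr6 KO over wildtype none of the 5 passed either, against 0.256% of all genes tested. Ly6d and Gldn were at background in both of these groups, so their missing calls are not informative. Slc35f2 was inside the olfactory receptor range in wildtype. For Slc35f2, Vtcn1 and Ifi27l2b, a missing call with so few arrays does not show equal levels. Slc35f2 had means of 5.83 ± 0.19 in Cxcr6 KO and 5.15 ± 0.20 in wildtype, a log2 fold change of 0.68 ± 0.27 (95% interval 0.07 to 1.298, limma adjusted p = 0.390). Vtcn1 had means of 7.11 ± 0.28 in Cxcr6 KO and 6.68 ± 0.20 in wildtype, a log2 fold change of 0.43 ± 0.18 (0.01 to 0.85, limma adjusted p = 0.432). Every Cxcr6 KO array lay above both wildtype arrays for Slc35f2, Vtcn1 and Gldn, as in 12.7% of all genes tested. Gldn had means of 5.14 ± 0.36 in Cxcr6 KO and 4.69 ± 0.20 in wildtype, both at background (0.45 ± 0.55, limma adjusted p = 0.838). Ly6d had means of 5.12 ± 0.29 in Cxcr6 KO and 5.21 ± 0.52 in wildtype, also both at background (-0.10 ± 0.78, limma adjusted p = 0.982). The filter used the highest group mean, so Ly6d and Gldn were tested here because of their Nemo-deleted groups. A lower RNA level cannot be measured at background, so no conclusion on Cxcr6 loss is drawn for Ly6d and Gldn from this contrast. For Ifi27l2b the log2 fold change was -0.67 ± 1.10 (limma adjusted p = 0.885), and 1.57 without wildtype replicate 2. The intervals of Ly6d, Gldn and Ifi27l2b in these contrasts span more than 1 log2 unit either side of the estimate, so changes of that size were not resolved.

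The difference between the Nemo effect in Cxcr6-deficient and in Cxcr6-intact mice was tested as an interaction, which 0% of all genes tested passed in limma (2155 genes had an unadjusted p under 0.05). The array-weighted and trend-and-robust limma fits also called 0 genes. The interaction was 1.76 ± 1.05 for Ly6d (95% interval -0.61 to 4.14, limma adjusted p = 0.523) and 1.46 ± 1.47 for Ifi27l2b (-1.85 to 4.78, limma adjusted p = 0.696). It was 0.26 ± 0.74 for Gldn (-1.42 to 1.94, limma adjusted p = 0.905) and -0.27 ± 0.36 for Slc35f2 (-1.09 to 0.55, limma adjusted p = 0.776). Vtcn1 had the narrowest interval, 0.01 ± 0.25 (-0.55 to 0.57, limma adjusted p = 0.984). Because the genes were chosen for a high level in both Nemo-deleted genotypes, these interactions are not fully independent of the choice. For Ly6d and Gldn the Nemo-intact groups were at background, so their interactions do not compare folds of RNA.

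**Figure D3:**
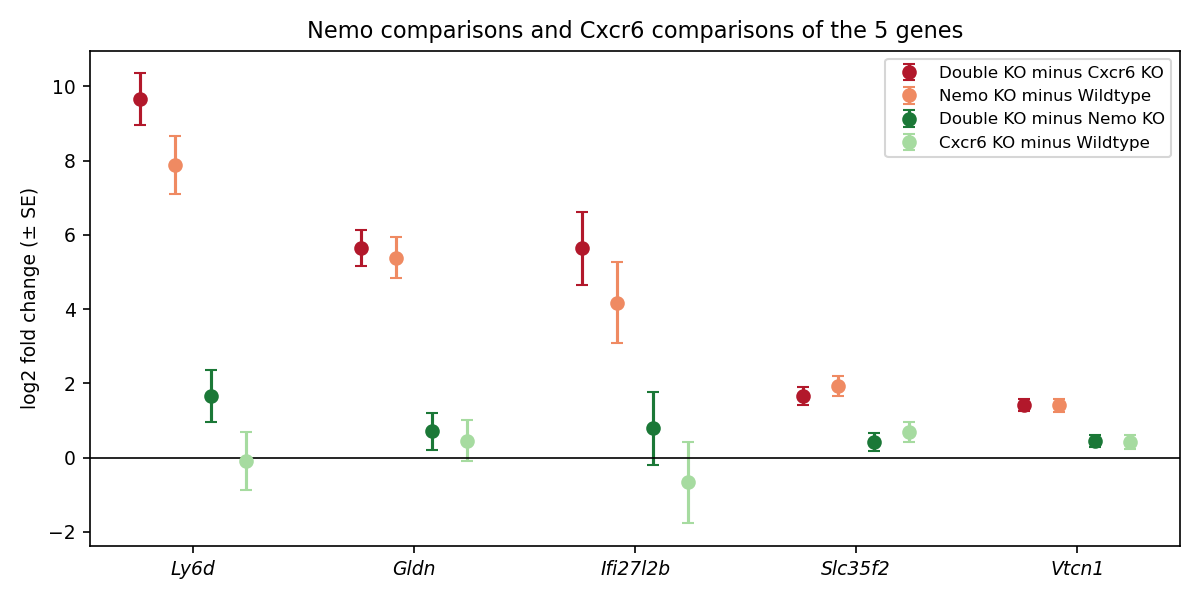
Log2 fold change with its SE (vertical axis) of each gene (horizontal axis) in the pair of Nemo comparisons and the pair of Cxcr6 comparisons. The Nemo effects lie between 1.41 and 9.65, while the Cxcr6 effects lie between -0.67 and 1.67 and none passed 5%. In Cxcr6 KO over wildtype, Ly6d and Gldn were at background in both groups.

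The order of group means was Double KO, Nemo KO, Cxcr6 KO and wildtype for Gldn, Slc35f2 and Vtcn1, and Double KO, Nemo KO, wildtype and Cxcr6 KO for Ly6d and Ifi27l2b. The Nemo-deleted arrays did not overlap the Nemo-intact arrays in any of the 5 genes. For Ifi27l2b the step between the Nemo KO and wildtype means (4.17) was nevertheless narrower than the distance between the wildtype arrays (4.47). In 3 of the 4 groups the same replicate was highest for all 5 genes. Nemo KO replicate 2 was the highest and replicate 3 the lowest of the 3 Nemo KO arrays for all 5 genes, an order that 16.1% of all genes tested had. Nemo KO replicate 3 was also the lowest of the 6 Nemo-deleted arrays in all 5, as in 20.0% of all genes. Double KO replicate 3 was the highest Double KO array in all 5, as in 28.2% of all genes, while the lowest was replicate 1 for 2 genes and replicate 2 for 3. Wildtype replicate 2 was above replicate 1 in all 5, as in 40.5% of all genes. The Cxcr6 KO arrays had no common order, since replicates 1 and 2 were each highest for 2 genes and lowest for 2.

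Nemo KO replicate 3 had the highest mean of its group for 10 Kupffer cell and macrophage markers (8.93, against 7.85 and 7.36 in replicates 1 and 2) and for 10 endothelial markers (8.08, against 7.57 and 7.58). Its hepatocyte marker mean was 18.32, against 18.23 and 18.22. Double KO replicate 3 had the highest cell cycle mean of its group (8.38, against 6.50 and 7.26), as wildtype replicate 2 had in its own. The part of these differences in the values of the 5 genes was not tested. In bulk RNA, fewer cells that express a gene and less RNA per cell cannot be told apart.

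**Figure D4:**
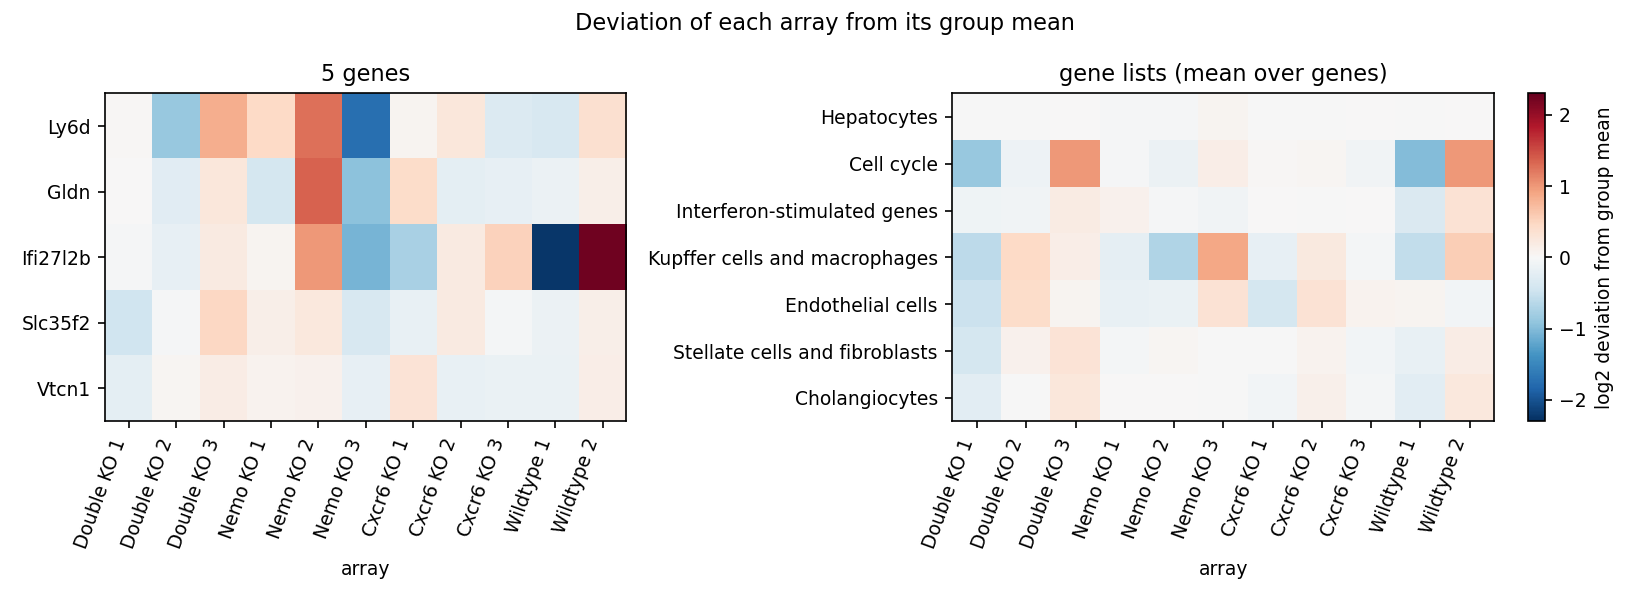
Deviation of each array (horizontal axis) from its group mean in log2 units (colour) for the 5 genes (left) and for the mean of 7 gene lists (right). All 5 genes are below the group mean in Nemo KO replicate 3 and above it in Nemo KO replicate 2 and Double KO replicate 3. Cell cycle genes deviate up in Double KO replicate 3 and wildtype replicate 2.

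Markers of the cells in which Ly6d and Gldn are best known had list means near the array medians. The mean of 10 B cell and plasmacytoid dendritic cell markers ran from 5.13 to 5.18 in Double KO and 5.22 to 5.27 in Nemo KO, against 5.05 to 5.11 in Cxcr6 KO and 5.04 to 5.06 in wildtype. The B cell surface gene Ms4a1 had 4.34 to 4.49 over the 11 arrays and the receptor chain gene Cd79a 4.71 to 5.11. Only 2 of the 11 listed markers could be tested. Of these, Blnk, an adaptor of B cell receptor signalling, rose in Double KO over Cxcr6 KO (0.97 ± 0.21, limma adjusted p = 0.0298) and had 1.32 ± 0.23 in Nemo KO over wildtype (limma adjusted p = 0.0572). Without wildtype replicate 2, Blnk had 1.33 there. The other tested marker, Siglech, had 0.02 ± 0.09 in Double KO over Cxcr6 KO (limma adjusted p = 0.911). It had 0.09 ± 0.10 in Nemo KO over wildtype (limma adjusted p = 0.621). The mean of 11 keratinocyte markers ran from 5.24 to 5.51 in Double KO and 5.31 to 5.39 in Nemo KO, against 5.21 to 5.29 in Cxcr6 KO and 5.19 to 5.27 in wildtype. Krt14, a basal keratin, had 5.35 to 5.51 over the 11 arrays. The mean of 8 Schwann cell markers ran from 4.74 to 4.82 in Double KO and 4.76 to 4.81 in Nemo KO, against 4.77 to 4.81 in Cxcr6 KO and 4.70 to 4.72 in wildtype. None of the 4 keratinocyte and 3 Schwann cell markers tested passed in either Nemo comparison. Sprr1a, a gene of the cornified envelope, had 5.88, 5.04 and 7.47 in Double KO, against 4.69, 3.90 and 3.77 in Cxcr6 KO (2.01 ± 0.53, limma adjusted p = 0.0516). It had means of 5.26 ± 0.14 in Nemo KO and 4.62 ± 0.41 in wildtype. Sprr1a was the only one of the 4 tested keratinocyte markers above 0 in Double KO over Cxcr6 KO (median -0.05). In Nemo KO over wildtype 3 of the 4 were above 0 (median 0.08), against 44.6% of all genes. The part of Sprr1a in the values of the 5 genes was not tested.

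Many markers of other liver cells rose in Double KO over Cxcr6 KO, and none had a call in Nemo KO over wildtype. In Double KO over Cxcr6 KO, where 7.41% of all genes passed and 3.44% passed upward, all 10 endothelial markers rose (median log2 fold change 1.94, against -0.06 for all genes). So did 4 of 10 Kupffer cell and macrophage markers (median 1.70) and 6 of 8 stellate cell and fibroblast markers (median 0.97). Of 7 cholangiocyte markers, 3 rose (median 1.07), among them Epcam (0.96 ± 0.20, limma adjusted p = 0.0257) and Pkhd1 (1.33 ± 0.20, limma adjusted p = 0.0129). The keratin genes of that list did not rise, with 0.02 ± 0.07 for Krt7 and -0.37 ± 0.25 for Krt23. No marker of these 4 lists passed in Nemo KO over wildtype, where 0.158% of all genes passed and 0.0491% passed upward. Their medians there were 0.52, 0.69, 0.32 and 0.12, against -0.04 for all genes. Above 0 there were all 10 endothelial, all 10 macrophage, all 8 stellate cell and 4 of 7 cholangiocyte markers, against 44.6% of all genes. The missing calls thus do not show that these markers were unchanged in Nemo KO. With wildtype replicate 2 left out, the macrophage gene Lyz2 had 2.59 there (2.01 with all arrays) and the cholangiocyte gene Pkhd1 0.73 (0.33 with all arrays). The endothelial mean ran from 8.38 to 9.30 in Double KO and 7.57 to 8.08 in Nemo KO, against 6.54 to 7.27 in Cxcr6 KO and 7.17 to 7.29 in wildtype. The macrophage mean ran from 8.26 to 9.32 in Double KO and 7.36 to 8.93 in Nemo KO, against 6.97 to 7.39 in Cxcr6 KO and 6.59 to 7.70 in wildtype. The stellate cell mean ran from 6.46 to 7.18 in Double KO and 6.28 to 6.38 in Nemo KO, against 5.62 to 5.77 in Cxcr6 KO and 5.77 to 6.09 in wildtype. The cholangiocyte mean ran from 6.11 to 6.61 in Double KO and 5.77 to 5.79 in Nemo KO, against 5.63 to 5.82 in Cxcr6 KO and 5.58 to 6.05 in wildtype. Whether these cells contributed to the signals of the 5 genes was not tested. The lists of T, NK and NKT cells and of neutrophils had no member past 5% in either comparison (4 and 1 tested). Neither did the 10 hepatocyte markers or the 19 cell cycle genes. The cell cycle median was 1.54 in Double KO over Cxcr6 KO and -0.05 in Nemo KO over wildtype. Above 0 were 18 of the 19 cell cycle genes in Double KO over Cxcr6 KO, against 39.3% of all genes. In Nemo KO over wildtype 6 were, against 44.6% of all genes. Leaving out wildtype replicate 2 does not change the fold changes of Double KO over Cxcr6 KO, but it does change the shared variance. Calls in that comparison, also those of cell cycle genes, therefore depend on that omission. In Nemo KO over wildtype that omission gave -1.13 for Hnf4a, -0.41 for Cyp2e1 and 0.81 for Cyp3a11, all hepatocyte markers.

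Listed relatives of Ly6d, Gldn, Slc35f2 and Vtcn1 that could be tested had smaller increases than the member itself in both Nemo comparisons. For Vtcn1 the difference was modest, since Icosl had 0.97 against 1.42 in Double KO over Cxcr6 KO. No relative of Ifi27l2b could be tested. Of all genes, 3.44% passed upward in Double KO over Cxcr6 KO and 0.0491% in Nemo KO over wildtype. These shares apply to this and the later lists. Of 15 tested genes of the Ly6 and uPAR family other than Ly6d, none passed in Nemo KO over wildtype (median 0.17). In Double KO over Cxcr6 KO, 2 rose (median 0.01). Ly6e, an interferon-responsive member, rose by 1.43 ± 0.24 (limma adjusted p = 0.0160) and Ly6c2, a monocyte surface gene, by 1.13 ± 0.22 (limma adjusted p = 0.0222). In Nemo KO over wildtype, Ly6e had 0.72 with all arrays and 1.28 without wildtype replicate 2. On chromosome 15, Ly6d lies beside Slurp2, Lynx1 and Ly6g6g, further Ly6 genes, which stayed below the test threshold. Lynx1 averaged 5.09 ± 0.14 in Double KO and 5.05 ± 0.04 in Nemo KO, against 4.53 ± 0.23 in Cxcr6 KO and 4.70 ± 0.17 in wildtype. Every Nemo-deleted array of Lynx1 lay above every Nemo-intact array, at signals inside the olfactory receptor range. Slurp2 had means of 4.14 in Double KO and 4.21 in Nemo KO, against 4.16 in Cxcr6 KO and 4.15 in wildtype. Ly6g6g had means of 4.68 in Double KO and 4.69 in Nemo KO, against 4.46 in Cxcr6 KO and 4.54 in wildtype.

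For gliomedin, 6 of 17 listed partners and olfactomedin relatives could be tested. Olfm3 rose in Double KO over Cxcr6 KO (0.55 ± 0.14, limma adjusted p = 0.0496), and none passed in Nemo KO over wildtype (medians 0.06 and 0.24). In Nemo KO over wildtype, Olfm3 had 0.22 with all arrays and 0.51 without wildtype replicate 2. Dmxl2, a regulator of the vesicle proton pump and the nearest gene beyond Gldn on chromosome 9 with a row, rose in Double KO over Cxcr6 KO (0.89 ± 0.23, limma adjusted p = 0.0482). It had 1.37 ± 0.25 in Nemo KO over wildtype (limma adjusted p = 0.0617). Its means were 11.01 ± 0.20 in Double KO and 10.63 ± 0.44 in Nemo KO, against 10.12 ± 0.19 in Cxcr6 KO and 9.26 ± 0.34 in wildtype. Every Nemo-deleted array of Dmxl2 (lowest 10.38) lay above every Nemo-intact array (highest 10.25), as in 2.03% of all genes tested. Sh2d7, the next gene, had means between 3.59 and 3.76 and was not tested.

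For Ifi27l2b the relevant lists were its family and the interferon-stimulated genes. Its neighbour on chromosome 12, Ifi27l2a, was below the test threshold but had 4.99, 4.98 and 4.94 in Double KO and 4.97, 4.82 and 4.68 in Nemo KO. It had 4.38, 4.55 and 4.29 in Cxcr6 KO and 4.12 and 4.26 in wildtype. Every Nemo-deleted array of Ifi27l2a thus lay above every Nemo-intact array, at signals near the olfactory receptor median of 4.53. These neighbours are close relatives and their probe sets may share signal, which was not tested. Ifi27 had no row with that symbol alone and was not analysed here. Of 37 interferon-stimulated genes tested, none passed in Nemo KO over wildtype (median -0.09), where 0.0491% of all genes passed upward. In Double KO over Cxcr6 KO, where 3.44% of all genes passed upward, 4 rose (median 0.21). Those named by the rule were Stat2, an interferon signal transducer (0.78 ± 0.12, limma adjusted p = 0.0133), Lgals3bp, a secreted galectin-binding protein (1.45 ± 0.25, limma adjusted p = 0.0177), and Ly6e. Stat2 had means of 10.54 in Double KO and 10.89 in Nemo KO, against 9.76 in Cxcr6 KO and 10.92 in wildtype, so Cxcr6 KO was the low group. It also fell in Cxcr6 KO over wildtype (-1.16, limma adjusted p = 0.0114). With all arrays, 26 of the 37 interferon-stimulated genes were above 0 in Double KO over Cxcr6 KO, against 39.3% of all genes. In Nemo KO over wildtype 15 were, against 44.6% of all genes. Ly6e had 1.28 in Nemo KO over wildtype without wildtype replicate 2. Serpina10, a protease inhibitor of coagulation and a near neighbour of Ifi27l2b, rose in Double KO over Cxcr6 KO (0.86 ± 0.16, limma adjusted p = 0.0196) and had 0.85 ± 0.17 in Nemo KO over wildtype (limma adjusted p = 0.0654). Ppp4r4, a phosphatase regulatory subunit between them, did not pass (0.29 and -0.35).

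For Slc35f2, none of 18 tested members of the SLC35 family passed in either comparison (medians 0.07 and 0.06). Slc35f5, of the same subfamily, had 0.70 ± 0.24 in Double KO over Cxcr6 KO (limma adjusted p = 0.0980). Slc35f1 and Slc35f3 had group means between 4.59 and 4.81 and were not tested. With all arrays, 10 of the 18 were above 0 in Double KO over Cxcr6 KO, against 39.3% of all genes. In Nemo KO over wildtype 12 were, against 44.6% of all genes. Slc35a4 had -0.42 in Nemo KO over wildtype with all arrays and -0.74 without wildtype replicate 2. Beside Slc35f2 on chromosome 9, Sln, a regulator of the muscle calcium pump, had 0.33 and 0.21 in the same comparisons and did not pass. The pseudogenes Rps6-ps3 and Gm16380 near it did not pass either.

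For Vtcn1, 8 of 15 genes of the B7 family and its receptors could be tested. The costimulatory ligand gene Icosl (0.97 ± 0.18, limma adjusted p = 0.0217) and the butyrophilin-like gene Btnl9 (0.57 ± 0.13, limma adjusted p = 0.0327) rose in Double KO over Cxcr6 KO, and none passed in Nemo KO over wildtype (medians 0.36 and 0.09). Cd276, which encodes B7-H3, had 0.62 ± 0.26 and 0.72 ± 0.29 in these comparisons and did not pass (limma adjusted p = 0.156 and 0.171) with all arrays. Without wildtype replicate 2, Cd276 had 1.23 in Nemo KO over wildtype. Trim45, the nearest gene of Vtcn1 with a row, had means between 4.50 and 4.59. Of 14 tested genes of the IKK complex and NF-kB pathway, none passed in either comparison (medians -0.02 and -0.02).

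The genes most like each member were named by Pearson correlation over the 11 arrays, a description that mostly reflects the split between Nemo-deleted and Nemo-intact arrays. Ly6d and Gldn were each other's closest match (r = 0.99). Next for both was Golm1, a Golgi membrane protein (r = 0.98 with Ly6d and 0.98 with Gldn), with 8.34, 8.40 and 8.35 in Double KO and 8.21, 8.59 and 7.73 in Nemo KO. Golm1 had 6.60, 6.60 and 6.59 in Cxcr6 KO and 6.59 and 7.02 in wildtype. In Nemo KO it was highest in replicate 2 and lowest in replicate 3, as were all 5 genes. Smpd3, a neutral sphingomyelinase, followed for Ly6d (r = 0.97) and the microRNA gene Mir1906-2 for Gldn (r = 0.97). Vtcn1 was closest to Gdpd1, a lysophospholipase (r = 0.97), Slc35f2 (r = 0.96) and Gldn (r = 0.96). Slc35f2 was closest to Mgat5, which branches N-glycans (r = 0.97), Vtcn1, and Abcb4, the phospholipid exporter of bile (r = 0.95). Ifi27l2b was closest to Robo1, a Slit receptor (r = 0.99), and the tetraspan genes Tm4sf4 (r = 0.97) and Cd9 (r = 0.97). In each of those 3 genes wildtype replicate 2 lay above wildtype replicate 1 and above every Cxcr6 KO array. Robo1 had 9.56 in wildtype replicate 2 and 7.33 in replicate 1, against 7.70 to 8.43 in Cxcr6 KO. Between pairs of the 5 genes, r ran from 0.88 for Vtcn1 with Ifi27l2b to 0.99 for Ly6d with Gldn.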

How the data were processed

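The authors deposited 1 log2 signal per array for each transcript cluster. Affymetrix Expression Console, RMA and Transcriptome Analysis Console are named, without versions, per the submitters' processing notes. Labelling started from 300 ng of RNA, per the labels' protocols. The genome build of the rows was not given in the sources used here. RMA fits probes across arrays. The deposited values ran from 1.79 to 19.93. How far the processing compresses or stretches differences at either end was not given, so ratios of signals are not calibrated amounts of RNA.

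Of 65956 rows, 30604 have 1 gene symbol, 2146 several and 33206 none. Only rows with 1 symbol were used, with symbols updated through gene identifiers (22818 matched, 827 changed), and the row with the highest mean was kept per gene. Genes whose highest group mean reached 5.27, the median row mean, were tested: 18337 genes, with all 5 members among them. The 4 groups were fitted together in limma 3.58.1 (R 4.3.3, lmFit and eBayes, 7 residual and 2.13 prior degrees of freedom). Tests were two-sided and adjusted by Benjamini-Hochberg at 5%. Errors of fold changes are SE and those of group means are SD.

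The members, gene lists and tests were chosen with earlier results of these data known. Further genes are named by rule: up to 3 with the smallest p per list and Nemo comparison, near neighbours in RefSeq, the 3 most correlated genes per member, and the widest gaps. Genes given as examples of low or high marker levels, and relatives of a member given for their level, were chosen outside that rule. The numbers that replicates share across groups did not pair them, since same-numbered arrays had correlations of deviations between -0.272 and 0.275. Alternatives were other scalings, filters, array weights, a replicate block, fits of 2 groups, averaged rows and left-out arrays. Those without wildtype replicate 2 for gaps and lists, and those for gaps in general, were added after seeing the data.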

Additional observations from a re-analysis of the deposited data

How the results depend on the processing

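For the 5 genes, 15 tested results were recomputed under 295 alternative values. None passed 5% (lowest limma adjusted p 0.0844), 281 kept their direction and 14 changed sign. Those of Ly6d and Gldn in Cxcr6 KO over wildtype compare groups at background. Of the values of the Nemo effects, 198 moved by less than the spread of replicates and 2 by more. Those 2 were Ifi27l2b in Nemo KO over wildtype without wildtype replicate 1 (1.94) and without wildtype replicate 2 (6.41). Sign changes were the Vtcn1 interaction with quantile normalization (-0.17) and with the replicate block (-0.016), and Ly6d in Cxcr6 KO over wildtype with that block (0.11). In Double KO over Nemo KO, leaving out each array gave 0.803 to 2.2996 for Ly6d, 0.24 to 1.39 for Gldn, 0.26 to 1.297 for Ifi27l2b, 0.17 to 0.64 for Slc35f2 and 0.35 to 0.55 for Vtcn1. It gave -0.47 to 0.27 for Ly6d and -2.90 to 1.57 for Ifi27l2b in Cxcr6 KO over wildtype. The interactions ran from 0.898 to 2.395 for Ly6d, -0.77 to 3.70 for Ifi27l2b, -0.21 to 0.93 for Gldn and -0.13 to 0.17 for Vtcn1, and from -0.51 to -0.045 for Slc35f2. Leaving out wildtype replicate 2 or Nemo KO replicate 3 gave gaps of 5.999 and 7.98 for Ly6d and 3.23 and 2.01 for Ifi27l2b. The same omissions gave 0.65 and 0.99 for Slc35f2 and 0.47 and 0.74 for Vtcn1.

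Counts of genes called depended more on the settings, for causes that were not tested. Double KO over Nemo KO had 109, and 201 with centred arrays, 971 with array weights, 61 with the replicate block, 11 with these 2 groups only and 19 to 161 with an array left out (lowest without Nemo KO replicate 1, highest without either wildtype array). Cxcr6 KO over wildtype had 47, and 28 centred, 24 with no filter, 16 with array weights, 24 with the replicate block, 0 with these 2 groups and 8 to 486 with an array left out (lowest without Cxcr6 KO replicate 2, highest without wildtype replicate 1). Nemo KO over wildtype had 29, and 1319 centred, 11 with quantile normalization, 7 with no filter, 85 with a stricter filter and 11 with trend and robust settings. It had 0 with array weights, 0 with the replicate block, 0 with these 2 groups, and 0 to 2369 with an array left out, the highest without wildtype replicate 2. Double KO over Cxcr6 KO had 1358, and 4692 with array weights, 2766 with these 2 groups and 116 to 2352 with an array left out (lowest without Cxcr6 KO replicate 3, highest without either wildtype array). The interaction had 0, and 0 to 230 with an array left out, the highest without wildtype replicate 1 (88 without wildtype replicate 2). Replicate numbers did not pair the arrays, so the replicate block reflects only a shared number. Fits without a wildtype array keep a single wildtype array, so their calls take in no spread between wildtype arrays.

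With 2 or 3 arrays a group, the number of arrays limits precision, and signals near the olfactory receptor range give no fold of RNA.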
